A study of Mus musculus with 6 samples.

Results

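The liver of a mouse lacking Abcg8 and fed a high sitosterol diet was set against the liver of a mouse lacking Abcg8 and fed a low sitosterol diet, over every gene that reached 1 CPM (a count scaled to the library total) in at least 1 of the 2 libraries. This rule kept 12079 of the 33639 genes in the deposited table. Both animals were male and carried a whole-body (global) loss of Abcg8, per the labels. Both were raised until weaning on a low sterol diet with 0.005% ezetimibe, a drug that blocks sterol uptake in the gut, and then ate their diets for 12 weeks. The sources used here do not give the sterol content of the diets, the strain, the deleted part of Abcg8 or the hour of collection. Livers of Abcg8-lacking males fed ergosterol or stigmasterol for the same time were sequenced in the same series, and their levels are given beside some genes for orientation. Every group was 1 mouse and 1 library, so each ratio below compares 2 libraries and has no replicate check, no test and no p-value.

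Abcg5 and Abcg8 pair into a transporter that pumps plant sterols out of hepatocytes into bile and out of enterocytes into the gut lumen. Without it sitosterol, the most common plant sterol in food, builds up in blood and tissues, a disorder known as sitosterolemia. Liver cells sense sterols through the receptor LXR, which turns on sterol export, and through SREBP2, which turns on cholesterol synthesis and uptake when sterols in the endoplasmic reticulum are scarce.

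The libraries held 49125137 (low) and 48505003 (high) rounded estimated counts. Levels are given as scaled CPM, for which each library total was first multiplied by its TMM factor, a correction for libraries that spend their reads on different abundant genes. A count of 0 allowed up to 0.0733 (low) and 0.0648 scaled CPM (high), taking 3 counts as the limit. Where a pair of levels is given, the low sitosterol liver comes first. Each ratio is high over low sitosterol on the log2 scale, with an exact (Clopper-Pearson) 95% interval that covers counting error only. In bulk tissue, fewer cells of a type and less RNA per cell cannot be told apart. Both livers were rich in hepatocyte products. Alb, the plasma protein albumin, was at 79153 in the low against 107958 in the high sitosterol liver, and Ttr, which carries thyroid hormone, at 8672 and 8885.

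The low sitosterol liver also held genes that belong to the adrenal cortex. Cyp11a1, which starts steroid hormone synthesis, stood at 17.1 in the low against 0.324 in the high sitosterol liver (log2 ratio -5.68, -6.57 to -4.99). Star, which feeds cholesterol to that enzyme, stood at 25.5 and 1.38 (log2 ratio -4.19), Hsd3b1 at 26.9 and 0.799 (log2 ratio -5.05) and Cyp11b1 at 14.3 and 0.432 (log2 ratio -5.02). The other livers lay near the high sitosterol liver, with Cyp11a1 at 0.337 (ergosterol) and 0.792 (stigmasterol). Of the 10 analysed adrenal cortex genes 7 were lower in the high sitosterol liver (median -3.51), of which 4 reached 1 CPM in the low sitosterol liver alone, and Cyp11b2 and Mc2r were below 1 CPM in both. Over those 7 genes the low sitosterol liver held 0.14% to 0.296% of the level in the low sitosterol adrenal (median 0.185%), and the high sitosterol liver held 0.00424% to 0.0217% of the level in its adrenal. In 15 of the 423 genes called lower below, the difference between the livers was at most 2 times that median share of the gene's adrenal level. Beside those 7 genes they were Chga, Chgb, Kcnk3, Lrrc8b, Mgarp, Parm1, Scg2 and Tmem35a, named after their values were seen. Without the 15 genes, 408 of the lower calls were left. Of 13 pancreatic acinar genes 11 were below 1 CPM in both livers, and Cela1 and Cela2a were at 24.5 and 9.05 (log2 ratio -1.43) and 1.54 and 0.691 (log2 ratio -1.14).

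A gene was called higher or lower when its levels differed at least 2-fold and its interval excluded equality. By this size rule 939 genes (7.77% of the 12079) stood higher under high sitosterol and 423 (3.50%) stood lower. The middle of the distribution was narrow: 88.7% of genes lay within 2-fold, the quartiles were -0.29 and 0.27, and the median over all genes was -0.05. At least 4-fold differences numbered 255 higher and 130 lower, and at least 16-fold differences 28 and 37. Calls were most frequent among low genes. A gene that reached 1 CPM in 1 library only had to be high there: 427 of the 939 higher genes reached it in the high sitosterol liver alone, and 157 of the 423 lower genes in the low sitosterol liver alone. Of 1294 genes with a mean under 2 scaled CPM, 27.3% were higher and 10.6% lower, while of 122 genes with a mean of 1000 or more 1.64% were higher and 11.5% lower. Genes called higher were 68.9% of all calls, but 80.1% when total counts were used for scaling and 82.7% on the log2(TPM + 0.1) scale. The all-gene median moved by 0.20 and 0.27 in these settings. The share of calls that were higher was 78.4% on the log2(TPM + 1) scale and 58.8% with no limit on low counts. The naming rules given under processing picked 227 genes past the size rule. Of these 19, all lower, were inside 2-fold when total counts were used. Among the 19 were Acacb, Arntl, Bcl6, Cela2a, Cyp8b1, Dnajb9, Fdps, Hspa5, Idi1, Lifr, Nceh1, Slco1a1, Slco1b2, Sqle, Syvn1, Tm7sf2, Txnip and Xbp1. Of the 1362 called genes 1359 had the same sign in the TPM table.

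**Figure D1:**
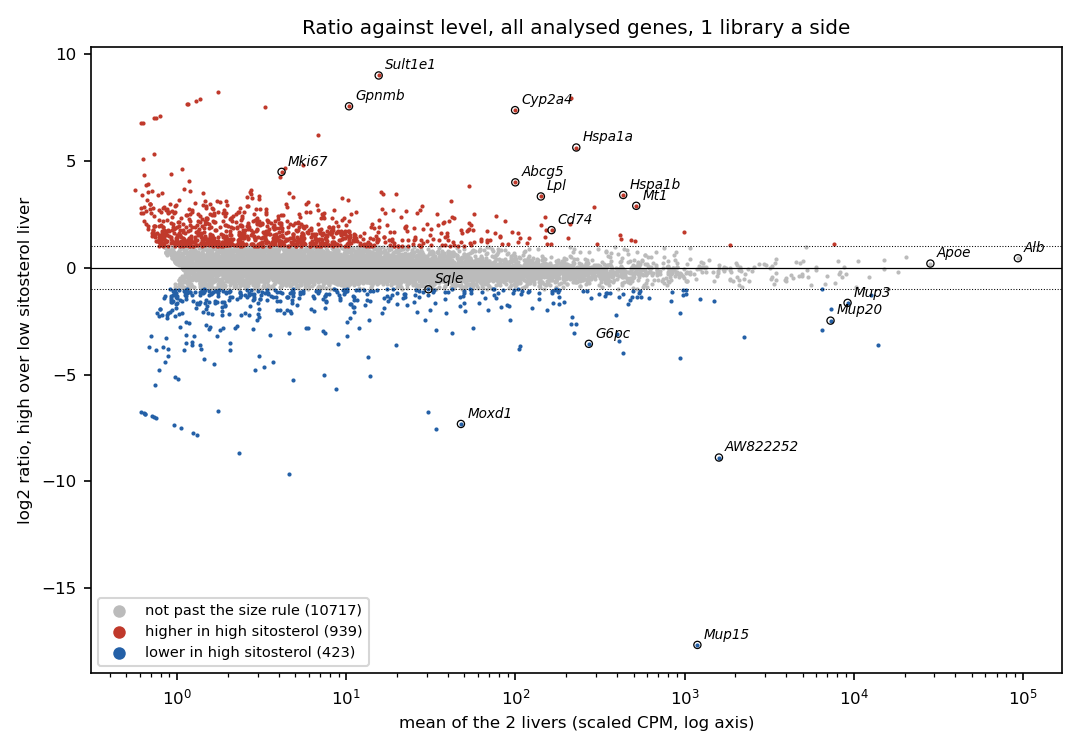
Log2 ratio of the high over the low sitosterol liver (vertical axis) against the mean level of both (horizontal axis, scaled CPM, log axis), 1 point for each of 12079 genes. Red points (939) stood at least 2-fold higher with an interval excluding equality, blue points (423) lower, grey points neither, and dotted lines mark 2-fold. Mup15 had no count in the high sitosterol liver, so its plotted height depends on the prior count of 0.5.

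The largest absolute differences were in abundant secreted proteins. The major urinary proteins, pheromone carriers that male mouse liver makes in bulk, took 7.33% (low) and 1.40% (high) of the counts. Mup7 alone was at 25881 in the low against 2086 in the high sitosterol liver, and Mup20, the male pheromone darcin, at 12377 and 2224. The 10 largest losses held 5 Mup genes, the predicted gene Gm21320 (17929 and 7389.9) and mt-Co3 of the mitochondrial genome. Among the others were Serpina3k, a protease inhibitor, at 21241 and 10739.9, and Serpina1c, an alpha-1-antitrypsin, at 13337 and 7245. Gains were led by Alb, which took 6.60% (low) and 10.3% (high) of the counts. Next in absolute gain stood Trf, the iron carrier transferrin, at 16854 and 24056, and Hpx, the heme scavenger hemopexin, at 4799 and 10553. Apoe, Apoa1, Hp, Ahsg, Serpina1e and Apoc1 were also among the 10 largest gains, and of the genes named Hpx was past 2-fold.

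Sterol export stood higher in the high sitosterol liver through its ABCG members. Abcg5 (GRCm38 chromosome 17, 84658234 to 84683011, minus strand) stood at 11.7 in the low against 188 in the high sitosterol liver, a log2 ratio of 4.0 (3.87 to 4.14). Abcg8 (chromosome 17, 84676302 to 84700333, plus strand), the gene named in the genotype, stood at 1.25 in the low against 10.6 in the high sitosterol liver, from 51 and 490 counts (3.07, 2.67 to 3.53). Abcg8 was at 8.84 in the ergosterol and 11.6 in the stigmasterol liver, and since the deleted part is not stated these counts do not check the genotype. The pair is read from opposite strands and the genes overlap in the annotation, and the library kit does not mark strand, so that their counts may share reads. Abcg1, which exports sterols from macrophages and other cells to HDL, stood at 4.03 and 12.3 (log2 ratio 1.6). It is also an LXR target. Abca1, which loads sterols onto new HDL particles, lay at 101 and 86.4 (log2 ratio -0.22) and was not past the size rule. Abca7 lay at 3.76 and 4.69 (log2 ratio 0.32), and Abcg4 and Npc1l1 were below 1 CPM in both livers. The start sites of Abcg5 and Abcg8 in RefSeq (GRCm38.p6) lie 109 bases apart, head to head, and the stretch between them, chr17:84683012-84683120 on the plus strand, is shown because both genes stood higher together.
Abcg5 to Abcg8: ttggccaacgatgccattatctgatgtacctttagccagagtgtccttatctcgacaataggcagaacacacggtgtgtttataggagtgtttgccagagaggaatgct

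LXR targets were split. Of 13 analysed members, Abcg1 and Abca1 included, 4 were higher and 0 lower, with a median of 0.32. Lpl, the lipase that frees fatty acids from lipoproteins and is low in adult hepatocytes, stood at 25.4 in the low against 257 in the high sitosterol liver (3.34, 3.25 to 3.43). Rnf145, a sterol-responsive ubiquitin ligase, stood at 14.5 and 66.6 (log2 ratio 2.2), and Cd5l, a protein secreted by Kupffer cells, at 56.9 and 227 (log2 ratio 2.0). The hepatocyte exporters Abcg5 and Abcg8 (log2 ratios 4.0 and 3.07), given above, are not members of this list. Some members that hepatocytes express lay closer to equality. Srebf1, the master factor of fat synthesis, lay at 219 and 399 (log2 ratio 0.87). Lpcat3, a phospholipid remodelling enzyme, lay at 86.9 and 95.9 (log2 ratio 0.14), and Scd1, the stearoyl-CoA desaturase, at 15583 and 14774 (log2 ratio -0.08). The receptor itself, Nr1h3 (LXR alpha), lay at 145 and 139 (log2 ratio -0.06). Of the list members past the size rule, Lpl, Abcg1 and Cd5l are also expressed by macrophages, whose markers stood higher in the same library. The part of those cells in these values was not tested.

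Several enzymes of cholesterol synthesis stood lower under high sitosterol. In the mevalonate arm 4 of 10 members were lower and 0 higher, with a median of -0.80. Mvd, which makes isopentenyl pyrophosphate, stood at 26.3 in the low against 8.94 in the high sitosterol liver (-1.55, -1.72 to -1.39). Pmvk stood at 43.2 and 18.1 (log2 ratio -1.26), Idi1 at 75.2 and 33.5 (log2 ratio -1.17) and Fdps, the farnesyl pyrophosphate synthase, at 476 and 213 (log2 ratio -1.16). Hmgcs1, the synthase that opens the pathway, lay at 121 and 64.4 (log2 ratio -0.91), just inside the limit. Of the 12 enzymes after squalene 5 were lower and 0 higher (median -0.43). Nsdhl, a sterol dehydrogenase, stood at 75.2 and 23.6 (log2 ratio -1.67), Hsd17b7, the partner ketoreductase, at 26.4 and 10 (log2 ratio -1.39), Cyp51, the lanosterol demethylase, at 106 and 43.7 (log2 ratio -1.27), and Tm7sf2, a sterol C14 reductase, at 149 and 69.8 (log2 ratio -1.1). Sqle, the squalene epoxidase, stood at 40.9 and 20.3 (log2 ratio -1.01), and it fell inside 2-fold under every other scaling tried. Fdps, Idi1 and Tm7sf2 were also inside 2-fold with total counts and on both TPM scales. Pmvk and Cyp51 were inside it on both TPM scales, and Hsd17b7 on the log2(TPM + 1) scale.

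The summed level of the mevalonate enzymes was 990.5 (low) and 509 (high), and that of the enzymes after squalene 1522 and 1382. The control genes of the pathway lay closer together. Of 12 members of the SREBP2 feedback and LDL uptake list, 1 was lower and 0 higher. That gene was Stard4, a carrier of cholesterol between membranes, at 110.5 and 47.9 (log2 ratio -1.2). On both TPM scales Stard4 was inside 2-fold. Srebf2, the gene of SREBP2, lay at 29.6 and 27.2 (log2 ratio -0.12). The retention proteins of SREBP lay on opposite sides, with Insig1 at 220.0 and 296 (log2 ratio 0.43) and Insig2 at 248 and 133 (log2 ratio -0.91). Sterol esterification was near equality: Soat2, the hepatocyte esterifying enzyme, lay at 35 and 37.5 (log2 ratio 0.1) and Soat1, the form of macrophages, at 5.2 and 8.96 (log2 ratio 0.78).

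The promoters of 3 enzymes that stood lower together and of Hmgcs1 are shown, each as the 250 bases before the RefSeq start (GRCm38.p6), 5′ to 3′ on the gene's strand. Capitals mark CCAAT on either strand, the site of the factor NF-Y that works beside SREBP2, and CACCCCAC on either strand, a core of SREBP sites.
Mvd, chr8:122443423-122443672, minus strand: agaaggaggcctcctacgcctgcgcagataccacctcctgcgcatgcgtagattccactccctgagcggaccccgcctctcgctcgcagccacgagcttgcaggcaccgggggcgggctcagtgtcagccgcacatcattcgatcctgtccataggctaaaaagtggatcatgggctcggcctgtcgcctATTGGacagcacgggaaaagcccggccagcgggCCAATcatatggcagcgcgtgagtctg
Nsdhl, chrX:72918271-72918520, plus strand: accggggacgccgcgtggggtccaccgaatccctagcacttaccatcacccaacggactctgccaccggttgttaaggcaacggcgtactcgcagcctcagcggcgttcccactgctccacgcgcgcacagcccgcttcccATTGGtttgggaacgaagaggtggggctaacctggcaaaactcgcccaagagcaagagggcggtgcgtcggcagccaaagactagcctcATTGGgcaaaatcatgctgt
Hsd17b7, chr1:169969206-169969455, minus strand: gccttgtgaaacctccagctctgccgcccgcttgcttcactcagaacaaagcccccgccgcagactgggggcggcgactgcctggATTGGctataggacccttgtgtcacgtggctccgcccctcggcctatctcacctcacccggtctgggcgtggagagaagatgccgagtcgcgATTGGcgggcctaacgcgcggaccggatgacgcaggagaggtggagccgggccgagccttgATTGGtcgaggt
Hmgcs1, chr13:119690101-119690350, plus strand: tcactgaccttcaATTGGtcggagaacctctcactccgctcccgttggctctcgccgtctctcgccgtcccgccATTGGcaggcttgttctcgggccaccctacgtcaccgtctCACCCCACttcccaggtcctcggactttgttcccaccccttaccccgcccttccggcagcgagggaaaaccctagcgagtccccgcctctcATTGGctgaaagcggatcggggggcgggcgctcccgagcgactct
Mvd and Nsdhl held 2 CCAAT each, Hsd17b7 held 3, and Hmgcs1 held 3 with 1 CACCCCAC. Windows of 17 of the 22 enzymes were at hand, and 15 of them held CCAAT against 33.9% of 32851 promoters in the same table. All 7 enzymes past the size rule that had a window held it, as did 8 of the 10 that were not past it. CACCCCAC was in 2 of the 17 windows, those of Hmgcs1 and Acat2, against 2.58% of all promoters. A match is a description of the letters and not a binding site.

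Bile acid genes differed in both directions at the start of the pathway. Cyp7a1, the rate-limiting enzyme of the classic route, stood at 13.4 in the low against 70.7 in the high sitosterol liver (2.4, 2.27 to 2.53). Cyp7b1, the oxysterol hydroxylase of the alternative route, stood at 357 and 72.7 (log2 ratio -2.3). Cyp8b1, which sets the share of cholic acid, stood at 343 and 159 (log2 ratio -1.11), a ratio close to the limit. Cyp27a1, which opens the alternative route, lay at 424 and 321 (log2 ratio -0.4). The other 10 members lay between -0.60 and -0.06, conjugation enzymes included, with Baat at 183 and 134 and Slc27a5 at 786 and 649. Cyp7b1 is more active in male liver and stood lower together with other male-biased genes, described below. Of 12 analysed bile acid and phospholipid transporters 3 were lower, each an uptake carrier on the blood side of hepatocytes. They were Slc10a1, the bile salt carrier NTCP, at 899 and 339.7 (log2 ratio -1.4), Slco1a1 at 505 and 224 (log2 ratio -1.18) and Slco1b2 at 671 and 317 (log2 ratio -1.08). Slco1a4, another such carrier, was past the rule in neither direction. With total counts and on both TPM scales Slco1a1 and Slco1b2 were inside 2-fold. Abcb11, the export pump for bile salts, lay at 458 and 261 (log2 ratio -0.81), and Abcc2, which exports conjugates, at 197 and 208 (log2 ratio 0.08). Nr0b2 (SHP), a target of the bile acid receptor, lay at 35.8 and 20.6 (log2 ratio -0.79) and the receptor Nr1h4 (FXR) at 68.6 and 75.4 (log2 ratio 0.14).

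**Figure D2:**
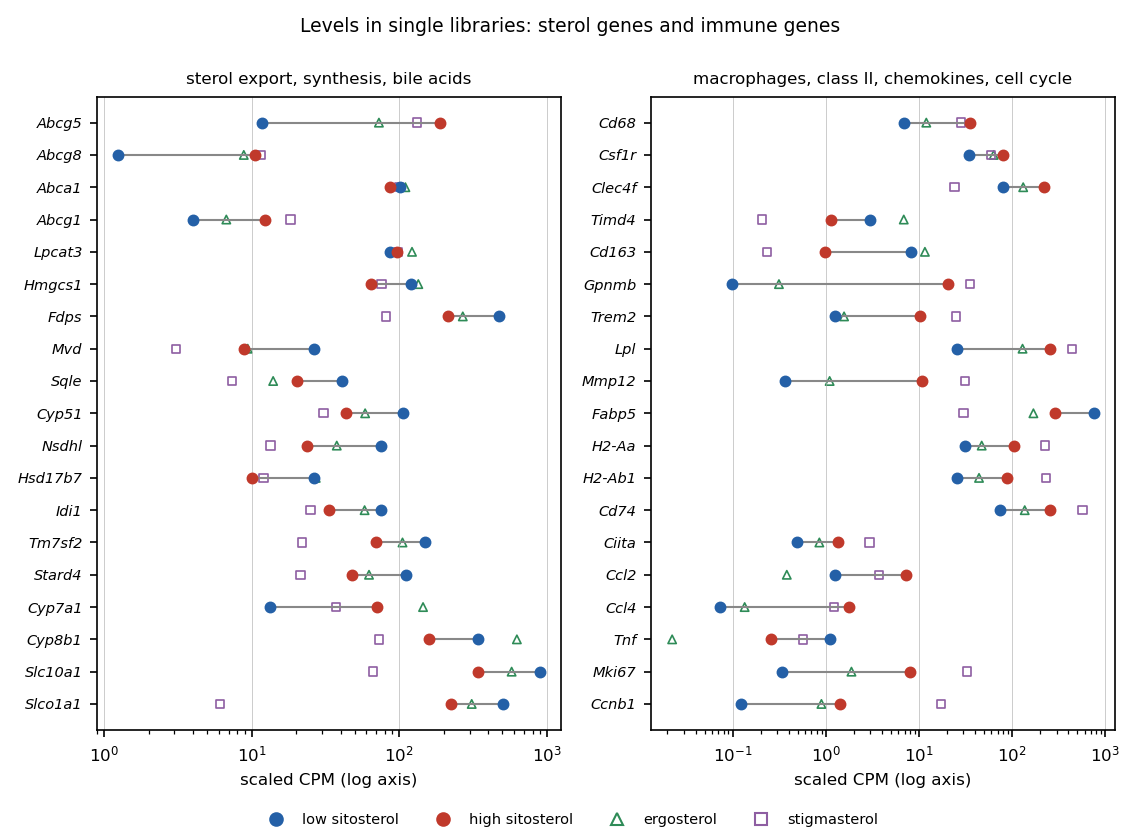
Scaled CPM (log axis) of sterol and bile acid genes (left) and of immune and cell cycle genes (right) in 4 single livers: filled blue, low sitosterol; filled red, high sitosterol; open triangle, ergosterol; open square, stigmasterol. A grey line joins the low and high sitosterol livers. Abcg5 is at 11.7 and 188, Gpnmb at 0.0977 and 20.7, and Cd163 and Timd4 lie lower in the high sitosterol liver while Clec4f lies higher.

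Genes of fatty acid synthesis stood lower at the steps that supply carbon and reducing power. Of 20 members 7 were lower and 0 higher (median -0.32). Me1, malic enzyme, stood at 646 in the low against 141 in the high sitosterol liver (-2.19, -2.23 to -2.15), Acly, ATP citrate lyase, at 276 and 86.4 (log2 ratio -1.68), and Acss2, which activates acetate, at 436 and 188 (log2 ratio -1.21). Elovl3, an elongase that is male-biased in liver, stood at 393 and 63.4 (log2 ratio -2.63), and Pnpla3, a lipase of lipid droplets, at 19.8 and 5.92 (log2 ratio -1.74). Acacb, the acetyl-CoA carboxylase at mitochondria, stood at 164 and 78 (log2 ratio -1.07). Fasn, fatty acid synthase, lay at 1149 and 963 (log2 ratio -0.25). In triglyceride storage, Plin4, a droplet coat protein, stood at 4.23 and 28.4 (log2 ratio 2.75) and G0s2, an inhibitor of the lipase ATGL, at 21.8 and 87 (log2 ratio 2.0). Abhd5, which activates that lipase, stood at 70.1 and 27.7 (log2 ratio -1.34). Plin2, the main droplet coat of hepatocytes, lay at 468 and 292 (log2 ratio -0.68), and Angptl8, an insulin-dependent inhibitor of lipoprotein lipase, stood at 254 and 80.5 (log2 ratio -1.66). Of the 24 analysed genes of apolipoproteins and remodelling 22 were past the rule in neither direction, Apob at 2525 and 2059 (log2 ratio -0.29) among them.

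Fatty acid oxidation showed no common direction, with 3 of 29 members higher and 2 lower (median -0.21), beside 7.77% and 3.50% of all genes. The omega-hydroxylases Cyp4a14 and Cyp4a10, targets of PPAR alpha that share sequence, stood at 14.1 and 60.5 (log2 ratio 2.1) and 66.6 and 174 (log2 ratio 1.38). Cyp4a12a, the male-biased member of the same family, stood at 481 and 195 (log2 ratio -1.3). Cd36, a fatty acid carrier, stood at 35.4 and 90 (log2 ratio 1.35), and Vnn1, a pantetheinase, at 50.5 and 16.1 (log2 ratio -1.65). The oxidation enzymes of mitochondria and peroxisomes lay inside 2-fold, with Cpt1a, which admits fatty acids to mitochondria, at 302 and 261 (log2 ratio -0.21). Ppara itself lay at 17 and 17.5 (log2 ratio 0.05). Among nuclear receptors 2 of 20 were higher, beside 7.77% of all genes. The list median was -0.06 and that of all genes -0.05. The 2 were Esr1 (estrogen receptor alpha) at 6.38 and 16.5 (log2 ratio 1.37) and Nr1i3, the xenobiotic receptor CAR, at 30.1 and 60.9 (log2 ratio 1.01).

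General macrophage markers stood higher as a block. All 18 were analysed, 14 were higher and 0 lower, and the median was 1.45. Cd68, a lysosomal glycoprotein of macrophages, stood at 6.86 in the low against 35.3 in the high sitosterol liver (2.36, 2.18 to 2.55). Complement C1q, made by tissue macrophages, was higher in each chain, with C1qa at 46 and 146 (log2 ratio 1.66), C1qb at 42.1 and 119 (log2 ratio 1.5) and C1qc at 37.5 and 115 (log2 ratio 1.61). Csf1r, the growth factor receptor that macrophages need, stood at 34.8 and 79.8 (log2 ratio 1.2) and Adgre1 (F4/80) at 5.59 and 15.4 (log2 ratio 1.46). Mrc1, Mertk, Cd14 and Itgam were not past the rule, with Itgam, a marker of blood monocytes, at 1.32 and 1.47 (log2 ratio 0.15). The summed level of the 18 genes was 383 (low) and 1032 (high), against 528 in the ergosterol and 1089 in the stigmasterol liver. Members of the macrophage, Kupffer, class II and monocyte lists made up 47 of the genes called higher, and 892 were left without them.

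Resident Kupffer cell markers parted. Of 14 members 7 were higher and 2 lower (median 0.94). Marco, a scavenger receptor for bacteria, stood at 3.13 and 18.1 (log2 ratio 2.53), Clec4f, a lectin of Kupffer cells, at 79.5 and 218 (log2 ratio 1.45), and Vsig4, a complement receptor, at 15.9 and 39.2 (log2 ratio 1.3). Timd4, a receptor for dying cells found on long-lived resident cells, stood at 2.98 in the low against 1.14 in the high sitosterol liver (122 and 53 counts, -1.37, -1.87 to -0.9). Cd163, the receptor that clears hemoglobin bound to haptoglobin, stood at 8.21 in the low against 0.972 in the high sitosterol liver (-3.06, -3.56 to -2.63). Cd163 reached 1 CPM in the low sitosterol liver alone. Thus Clec4f and Timd4, both defining markers, lay on opposite sides of equality. On the TPM scales Timd4 was no longer past the limit. Timd4 and Cd163 were at 6.87 and 11.6 in the ergosterol and at 0.205 and 0.235 in the stigmasterol liver.

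Genes of lipid-associated macrophages, cells that gather where fat or sterols accumulate, had the largest median of the lists with 3 or more analysed members, at 2.66, with 12 of 19 higher and 1 lower. Of the 12, 6 reached 1 CPM in the high sitosterol liver alone, which in part fixes this median. Gpnmb (chromosome 6, 49036546 to 49070929, plus strand), a lysosomal glycoprotein of lipid-loaded cells, had 4 and 957 counts (0.0977 in the low against 20.7 in the high sitosterol liver, log2 7.56, 6.36 to 9.6). Mmp12, the macrophage elastase, stood at 0.366 and 10.7 (log2 ratio 4.82) and Trem2, the lipid receptor of these cells, at 1.27 and 10.2 (log2 ratio 3.0). Itgax (CD11c), Atp6v0d2, a subunit of the lysosomal proton pump, and Lgals3, a galectin, stood at 0.366 and 3.2 (log2 ratio 3.09), 1.07 and 7.86 (log2 ratio 2.86) and 7.3 and 47 (log2 ratio 2.68). Lysosomal proteases that hepatocytes also express were nearer to equality, with Ctsb at 661 and 1115 (log2 ratio 0.75), Ctsd at 487 and 576 (log2 ratio 0.24) and Ctsl at 963 and 1104 (log2 ratio 0.2). Spp1 and Cd9 lay at -0.02 and -0.12. Fabp5, a fatty acid carrier, stood lower, at 755 and 291 (log2 ratio -1.38).

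Class II antigen presentation was higher throughout. Each of the 10 analysed members was past the size rule, within a narrow range of 1.21 to 1.93 (median 1.72), and Cd80 was below 1 CPM in both livers. Of the 10, 8 reached 1 CPM in both livers. The peptide-binding chains H2-Aa, H2-Ab1 and H2-Eb1 stood at 31.4 and 105 (log2 ratio 1.74), 25.7 and 87.2 (log2 ratio 1.76) and 24 and 81.2 (log2 ratio 1.76). Their chaperone Cd74, the invariant chain, stood at 74.4 and 253 (log2 ratio 1.76). Ciita, the factor that switches these genes on, had 20 and 63 counts and stood at 0.489 and 1.36 (log2 ratio 1.46). Macrophages and dendritic cells express these genes, and the part of cell number in the values was not tested. The costimulators Cd40 and Cd86 stood at 0.537 and 1.47 (log2 ratio 1.43) and 2.42 and 5.61 (log2 ratio 1.21). Of the 13 monocyte and dendritic cell markers 7 were analysed and 4 were higher, all 4 through the high sitosterol liver alone: Clec9a, a receptor of cross-presenting dendritic cells, stood at 0.879 and 3.3 (log2 ratio 1.9). Ccr2, the receptor of recruited monocytes, lay at 0.928 and 1.75 (log2 ratio 0.91), and Ly6c2 was below 1 CPM in both.

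Many chemokines stood higher, from low levels. Of 23 listed members 18 were analysed, 10 of them higher and 0 lower (median 1.52), and 5 were below 1 CPM in both livers. Of the 10, 5 reached 1 CPM in the high sitosterol liver alone. Cxcl1, which draws neutrophils, stood at 4.89 and 28.8 (log2 ratio 2.56) and Ccl2, which draws monocytes, at 1.27 and 7.21 (log2 ratio 2.49). Ccl4 had 3 and 82 counts (log2 ratio 4.39, 3.0 to 6.9), and Ccl3 stood at 0.22 and 1.53 (log2 ratio 2.74). Ccl5 and Cxcl10 stood at 0.757 and 5.12 (log2 ratio 2.74) and 2.64 and 8.31 (log2 ratio 1.65), while Cxcl12, made by stromal cells, lay at 137 and 117 (log2 ratio -0.23). Classic cytokines were low. Tnf, with 45 and 12 counts, and Il6, with 11 and 0, were below the limit of 1 CPM, and Il1b lay at 2.93 and 1.55 (log2 ratio -0.91). Il1rn, the natural blocker of IL1 signalling, stood at 2.27 and 12.3 (log2 ratio 2.44), and Tgfb1 at 4.57 and 9.22 (log2 ratio 1.01). Il1r1, the receptor, lay at 101 and 59.4 (log2 ratio -0.76).

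Interferon-stimulated genes leaned higher with modest ratios, 5 of 24 higher and 0 lower (median 0.51, highest Zbp1 at 3.37 and 9.05 (log2 ratio 1.42)). Isg15 and Ifit1 lay at 11.7 and 15.2 (log2 ratio 0.37) and 7.33 and 7.43 (log2 ratio 0.02). Most markers of lymphocytes were too low to analyse: 17 of 22 T and NK cell markers, the Cd3 chains and Cd8a among them, were below 1 CPM in both livers, as were 9 of 15 B and plasma cell genes, Ms4a1 included. Of the 5 analysed T and NK cell markers 4 were higher, each of which reached 1 CPM in the high sitosterol liver alone. Cd4 stood lower (2.0 and 0.605 (log2 ratio -1.71)) and is also expressed by macrophages. Ighm, the heavy chain of IgM, stood at 8.62 and 17.7 (log2 ratio 1.03). Of the neutrophil markers 8 of 15 were below 1 CPM in both, and the calprotectin chains S100a8 and S100a9 lay at 2.44 and 1.86 (log2 ratio -0.39) and 3.81 and 3.78 (log2 ratio -0.01). Lcn2, an iron-sequestering protein that hepatocytes also make, stood at 6.89 in the low against 99.2 in the high sitosterol liver (3.85, 3.67 to 4.03). Prtn3, a protease of neutrophil granules, stood at 0.391 and 7.73 (log2 ratio 4.27) and reached 1 CPM in the high sitosterol liver alone.

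Acute phase proteins divided into those that were higher, 7 of 24, and a larger group near equality, with 0 lower. Saa1 and Saa2, apolipoproteins of inflammation whose sequences are alike, stood at 58 and 154 (log2 ratio 1.41) and 20.2 and 86 (log2 ratio 2.09), and Saa3, which macrophages make too, at 3.3 and 12.4 (log2 ratio 1.91). Orm2 and Orm3 stood at 13.9 and 55.8 (log2 ratio 2.0) and 2.08 and 8.77 (log2 ratio 2.07) while Orm1, the abundant member, lay at 1262 and 1273 (log2 ratio 0.01). The fibrinogen chains lay on the lower side of equality, with Fgb at 5552 and 4319 (log2 ratio -0.36). Coagulation and complement proteins gave a level reference from the same hepatocytes: 0 of 30 were past the rule in either direction, the median was -0.06, and the range ran from -0.79 to 0.47. Their summed level was 21005 (low) and 21023 (high).

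Iron and heme genes differed at the hormone and at the scavengers. Hamp, the hormone hepcidin that holds iron inside cells, stood at 1394 in the low against 574 in the high sitosterol liver (-1.28, -1.3 to -1.26). Bmp6, which drives it, stood at 1.34 and 0.54 (log2 ratio -1.3) and reached 1 CPM in the low sitosterol liver alone. Hmox1, which breaks down heme, stood at 23.5 and 82.5 (log2 ratio 1.81) and Hpx at 4799 and 10553 (log2 ratio 1.14). Haptoglobin, Hp, lay at 3515 and 7005 (log2 ratio 0.99), at the edge of the 2-fold limit. Iron stores markers Fth1 and Ftl1 lay at -0.05 and 0.21, and the transferrin receptor Tfrc at 11.6 and 14.7 (log2 ratio 0.35). Erythroid genes, a sign of blood in the tissue, lay near equality, with Hbb-bs at 135 and 158 (log2 ratio 0.23) and Alas2 at 94.2 and 79.1 (log2 ratio -0.25), and 1 of 7 was past the rule.

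Matrix and stromal genes showed scattered calls. Of 17 collagen chains 1 was higher and 0 lower (median 0.54), and the fibril chains Col1a1 and Col3a1 lay at 10.1 and 14.9 (log2 ratio 0.55) and 23.4 and 34.8 (log2 ratio 0.57). Acta2, the smooth muscle actin of activated stellate cells and vessel walls, stood lower, at 10.4 and 1.47 (log2 ratio -2.82), and Tagln, which marks the same cells, lay at 16.7 and 8.4 (log2 ratio -0.99). Stellate cell markers Lrat, Des and Reln lay at -0.12, 0.45 and -0.4. Among sinusoidal endothelial genes 1 of 19 was past the rule, and it reached 1 CPM in the low sitosterol liver alone. This was the Wnt ligand Wnt9b at 1.34 and 0.281 (log2 ratio -2.21). Its companion Wnt2 lay at 4.1 and 2.05 (log2 ratio -1.0). Cholangiocyte keratins were at low levels, Krt19 at 1.91 and 1.12 (log2 ratio -0.76) and Krt7 at 1.49 and 1.17 (log2 ratio -0.35), while Sox9, a factor of ductular cells that stressed hepatocytes can express, stood at 3.52 and 11.1 (log2 ratio 1.65).

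Of 32 listed cell cycle genes 28 were analysed, 16 were higher and 0 lower (median 1.45). This count and median are in part fixed by the limit on low counts: 14 of the 16 reached 1 CPM in the high sitosterol liver alone, and of the 14 genes that reached it in both livers 2 were higher. The list median less that of all genes was 1.502, but 0.605 with a limit of 5 CPM and 0.412 on the log2(TPM + 1) scale. Mki67, the proliferation antigen, had 14 and 368 counts, at 0.342 and 7.95 (log2 ratio 4.49). Genes of mitosis were below 1 CPM in the low sitosterol liver, with Ccnb1 at 0.122 and 1.42 (log2 ratio 3.43), Plk1 at 0.147 and 1.23 (log2 ratio 2.97) and Cdk1 at 0.684 and 4.27 (log2 ratio 2.62). Ccnd1, the cyclin that hepatocytes use to leave rest, stood at 23.6 in the low against 72.9 in the high sitosterol liver (1.62, 1.52 to 1.73). Replication genes lay nearer to equality: Mcm6 stood at 2.98 and 7.19 (log2 ratio 1.27), but Mcm5, Pcna and Rrm2 lay at 0.24, 0.14 and -0.26. In the stigmasterol liver Mki67 was at 32.5 and in the ergosterol liver at 1.89. Of 22 targets of p53 and apoptosis genes 3 were higher, beside 7.77% of all genes. Of the 3, 2 reached 1 CPM in the high sitosterol liver alone, and of the 19 members that reached it in both livers 1 was higher. Among the 3 were Plk2 at 2.32 and 11.9 (log2 ratio 2.35) and Pmaip1 at 0.757 and 4.06 (log2 ratio 2.4). Cdkn1a (p21) lay at 10.9 and 20.6 (log2 ratio 0.92) and Mdm2 at 15.4 and 19 (log2 ratio 0.31). Immediate early genes were mixed, 5 of 22 higher and 3 lower: Jun stood at 21.9 and 73.8 (log2 ratio 1.75) and Myc at 2.93 and 8.96 (log2 ratio 1.61), while Klf10 stood at 129 and 35.7 (log2 ratio -1.86), Dusp1 at 38.5 and 15.1 (log2 ratio -1.35) and Egr1 lay at 53.8 and 35.6 (log2 ratio -0.6).

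**Figure D3:**
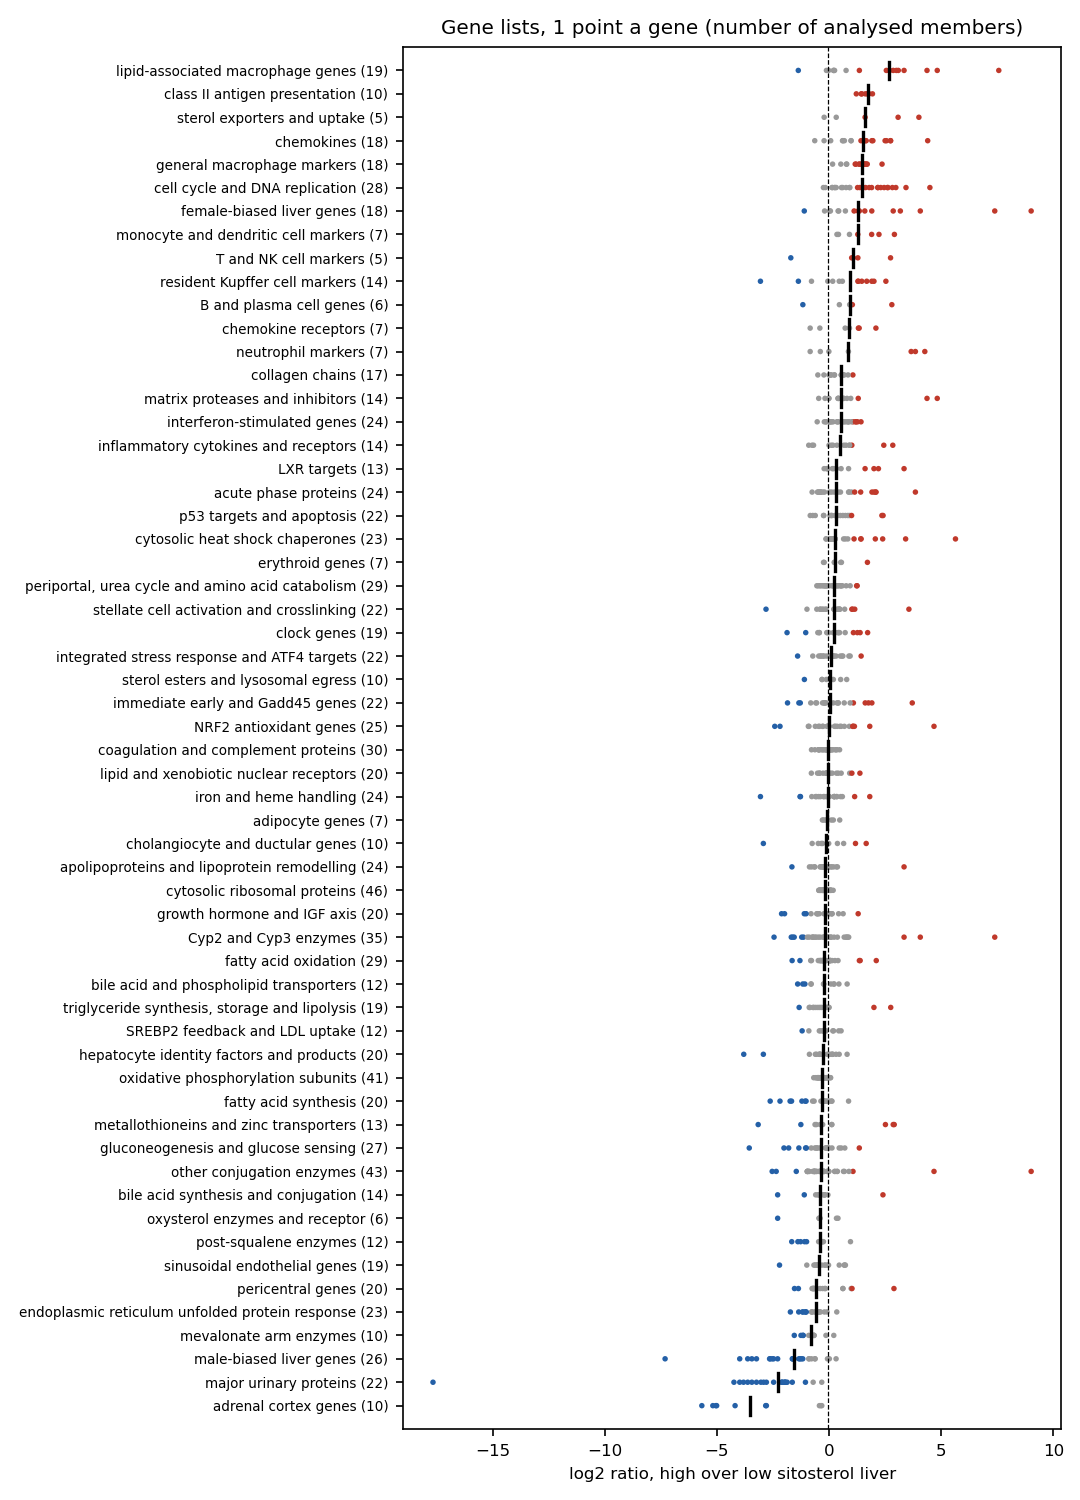
Log2 ratio of the high over the low sitosterol liver for each analysed member of the 58 gene lists with 3 or more such members, ordered by list median (black bar). Red and blue points are past the size rule, grey points are not, and the dashed line is the median over all 12079 genes (-0.05). Lipid-associated macrophage and class II genes lie at the top, and major urinary protein and adrenal cortex genes at the bottom.

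Several heat shock chaperones stood far higher, while most members of the list were past the rule in neither direction. Of 23 members 7 were higher and 0 lower (median 0.27). Hspa1a (chromosome 17, 34969190 to 34972156, minus strand), an inducible Hsp70, stood at 9.04 in the low against 449 in the high sitosterol liver (5.63, 5.49 to 5.79). Hspa1b, its near-identical neighbour, stood at 74.6 in the low against 793 in the high sitosterol liver (3.41, 3.36 to 3.46), and the reads of the pair cannot be divided with certainty. Their levels were 4.11 and 46.4 in the ergosterol and 2.35 and 7.26 in the stigmasterol liver, so that the high sitosterol library was the highest of the 4 livers. The cochaperones Dnajb1 and Bag3 stood at 47.9 and 251 (log2 ratio 2.39) and 43.8 and 117 (log2 ratio 1.42), the small chaperone Hspb1 at 81.2 and 339 (log2 ratio 2.06) and Hsph1, which recharges Hsp70, at 112 and 298 (log2 ratio 1.41). Hspa1l was higher too (log2 ratio 1.11), while Hspb8 and Dnajb4 lay at log2 ratios of 0.07 and 0.64. The constitutive Hspa8 and Hsp90ab1 lay at 2585 and 2929 (log2 ratio 0.18) and 1292 and 1321 (log2 ratio 0.03), and the factor Hsf1 at 13.7 and 14.3 (log2 ratio 0.07).

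The 250 bases before the RefSeq starts of both Hsp70 genes are shown because the genes stood higher together. Capitals mark GAANNTTC, a pair of facing heat shock units, which reads the same on both strands.
Hspa1a, chr17:34972157-34972406, minus strand: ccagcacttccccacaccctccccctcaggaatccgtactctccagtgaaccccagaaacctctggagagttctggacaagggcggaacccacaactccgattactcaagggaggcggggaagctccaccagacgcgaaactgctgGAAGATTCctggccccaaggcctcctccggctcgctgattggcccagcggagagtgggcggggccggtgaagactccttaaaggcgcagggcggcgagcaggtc
Hspa1b, chr17:34959239-34959488, minus strand: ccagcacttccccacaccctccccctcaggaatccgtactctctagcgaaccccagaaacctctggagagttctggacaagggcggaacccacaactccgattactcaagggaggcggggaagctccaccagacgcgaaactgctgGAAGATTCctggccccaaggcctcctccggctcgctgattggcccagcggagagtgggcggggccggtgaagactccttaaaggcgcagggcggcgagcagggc
The windows were identical at 247 of 250 positions and each held 1 match. Of the 18 chaperone genes with a window 6 held a match, 3 of the 7 past the size rule and 3 of the 11 not past it, against 6.69% of all 32851 promoters.

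Metallothioneins, small proteins that bind zinc and copper, stood higher together. Mt1 (chromosome 8, 94179082 to 94180327, plus strand) stood at 122 in the low against 914 in the high sitosterol liver (2.9, 2.86 to 2.94) and Mt2 (chromosome 8, 94172664 to 94173568, plus strand) at 70.4 in the low against 509.9 in the high sitosterol liver (2.86, 2.8 to 2.91). Their levels were 34.3 and 8.17 in the ergosterol and 398 and 247 in the stigmasterol liver. Zinc transporters were split: Slc39a4, an importer, stood at 17 and 96.6 (log2 ratio 2.51), Slc39a5 at 2.03 and 0.216 (log2 ratio -3.16) and Slc30a10, which exports manganese, at 26.3 and 11 (log2 ratio -1.26). Slc30a1, an exporter that zinc induces, lay at 27 and 29.4 (log2 ratio 0.12), and Slc39a14, the importer that inflammation induces, at 201 and 153 (log2 ratio -0.39). Mtf1, the zinc-sensing factor, lay at 13.1 and 14.2 (log2 ratio 0.11).

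The windows before the starts of the pair are shown with TGCNCNC, the core of the metal response element, in capitals on either strand.
Mt1, chr8:94178839-94179088, plus strand: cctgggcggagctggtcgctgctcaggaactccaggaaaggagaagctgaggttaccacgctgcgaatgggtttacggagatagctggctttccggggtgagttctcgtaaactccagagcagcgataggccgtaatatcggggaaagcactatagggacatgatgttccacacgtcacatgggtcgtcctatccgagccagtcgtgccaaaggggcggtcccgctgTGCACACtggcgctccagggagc
Mt2, chr8:94172368-94172617, plus strand: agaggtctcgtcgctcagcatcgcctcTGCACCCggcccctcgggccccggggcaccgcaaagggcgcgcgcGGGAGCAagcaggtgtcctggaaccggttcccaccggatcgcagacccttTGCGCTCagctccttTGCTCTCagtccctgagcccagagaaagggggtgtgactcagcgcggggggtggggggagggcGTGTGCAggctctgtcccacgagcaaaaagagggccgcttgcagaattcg
In these windows Mt1 held 1 match and Mt2 held 5, and bases after the RefSeq starts were not searched, so the counts do not cover the whole promoters. The core is loose: 44.4% of all promoters held at least 1, and 7 of the 11 metallothionein and zinc transporter genes with a window did, Slc39a5 among them.

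Chaperones of the endoplasmic reticulum lay on the lower side. Of 23 genes of the unfolded protein response 7 were lower and 0 higher, and 22 ratios were below 0 (median -0.60). Hspa5 (BiP), the main chaperone of that compartment, stood at 1329.7 in the low against 636 in the high sitosterol liver (-1.06, -1.08 to -1.04). Creld2 stood at 137 and 41.4 (log2 ratio -1.73), Hyou1 at 262 and 102 (log2 ratio -1.36) and Xbp1, the factor that expands secretion, at 481 and 213 (log2 ratio -1.17). With total counts and on both TPM scales Hspa5, Xbp1, Syvn1 and Dnajb9, all among the 7, were inside 2-fold. The integrated stress response had 1 of 22 members higher, Ddit3 (CHOP) at 9.09 and 24.4 (log2 ratio 1.43), and 1 lower, Chac1 at 13.4 and 5.05 (log2 ratio -1.41). Atf4, its central factor, lay at 85.1 and 77.4 (log2 ratio -0.14), and Asns and Trib3, its targets, at 0.57 and -0.46.

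Antioxidant genes of the NRF2 list differed in both directions, 5 of 25 higher and 2 lower, beside 7.77% and 3.50% of all genes. Of the 5 higher, 2 reached 1 CPM in the high sitosterol liver alone, Gsta1 among them. Of the 23 members that reached it in both livers 3 were higher and 2 lower. Gsta1, a glutathione transferase close in sequence to Gsta2, stood at 0.318 and 8.4 (log2 ratio 4.68) from 13 and 389 counts, and Gsta2 at 4.84 and 10.1 (log2 ratio 1.06). Nqo1, a common marker of NRF2 activity, lay at 2.37 and 4.43 (log2 ratio 0.9), and Gclc, which limits glutathione synthesis, at 103 and 97.4 (log2 ratio -0.08). The enzymes lower in this list make NADPH: G6pdx, of the pentose phosphate pathway, at 49.6 and 9.22 (log2 ratio -2.43), and Me1, given above. Pgd, the next step of that pathway, lay at 93.7 and 49.2 (log2 ratio -0.93).

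**Figure D4:**
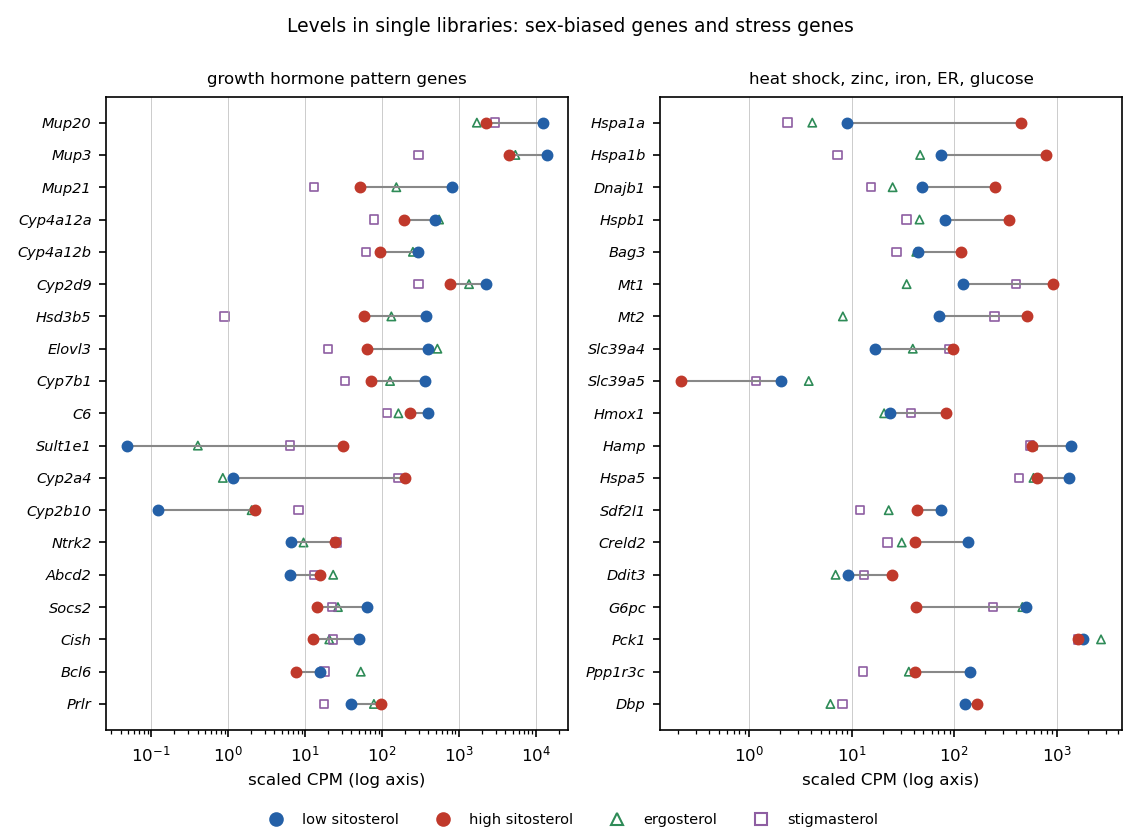
Scaled CPM (log axis) of genes that follow the growth hormone pattern (left) and of heat shock, zinc, iron, endoplasmic reticulum, glucose and clock (Dbp) genes (right) in 4 single livers: filled blue, low sitosterol; filled red, high sitosterol; open triangle, ergosterol; open square, stigmasterol. Male-biased genes lie lower and Sult1e1 and Cyp2a4 higher in the high sitosterol liver. Hspa1a is at 9.04 and 449 and G6pc at 501 and 42.4.

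Genes that differ between male and female liver, which follow the pulsed or steady release of growth hormone, differed although both mice were labelled male. Of 28 listed male-biased genes 26 matched a gene of the table and were analysed, and 18 were lower and 0 higher (median -1.59). Among the 18 were Mup1, Mup3, Mup7, Mup11, Mup20 and Mup21, which are counted again with the major urinary proteins below. Hsd3b5, a steroid reductase of male liver, stood at 368 in the low against 58.4 in the high sitosterol liver (-2.66, -2.72 to -2.6). Cyp2d9, the male testosterone hydroxylase, stood at 2222 and 754 (log2 ratio -1.56), Nudt7 at 792 and 311 (log2 ratio -1.35) and Selenbp2 at 609 and 257 (log2 ratio -1.24). Some members were near equality: Cyp2f2 lay at 611 and 616 (log2 ratio 0.01), Sult5a1 at 6.23 and 5.92 (log2 ratio -0.07) and Serpina1e at 7238 and 8965 (log2 ratio 0.31). Moxd1, a monooxygenase relative, stood at 94.7 in the low against 0.583 in the high sitosterol liver (3876 and 27 counts, -7.32, -7.95 to -6.8), and at 0.247 and 0.0587 in the ergosterol and stigmasterol livers, so that here the low sitosterol library stood apart.

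Of 34 female-biased genes 18 were analysed, 11 higher (5 of them at 1 CPM in the high sitosterol liver alone) and 1 lower, and the other 16, Cyp2b9, Cyp3a41a and Cux2 among them, were below 1 CPM in both livers. Sult1e1 (chromosome 5, 87575969 to 87591594, minus strand), which inactivates estrogens, had 2 and 1438 counts (9.01, 7.46 to 12.36). Cyp2a4 (chromosome 7, 26307169 to 26315088, plus strand), the female steroid 15-alpha-hydroxylase, stood at 1.17 in the low against 198 in the high sitosterol liver (7.39, 6.99 to 7.84). Its close copy Cyp2a5, whose reads may be shared, lay at 283 and 449.6 (log2 ratio 0.67). Cyp2b10, a target of CAR, stood at 0.122 and 2.22 (log2 ratio 4.06), the neurotrophin receptor Ntrk2 at 6.62 and 24.8 (log2 ratio 1.9), the peroxisomal transporter Abcd2 at 6.28 and 15.6 (log2 ratio 1.31) and Prlr, the prolactin receptor, at 39.4 and 96.6 (log2 ratio 1.29). The female-specific factor Cux2 had 23 and 34 counts. Cd36 and Atp6v0d2, which are on this list, are also expressed by macrophages. Cyp17a1 and the flavin monooxygenase Fmo1 lay at -0.2 and 0.03, and Lifr, a cytokine receptor, stood at 226 and 105 (log2 ratio -1.11).

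The immediate readouts of growth hormone signalling were lower. Socs2, a feedback inhibitor that STAT5 induces, stood at 63 in the low against 14.5 in the high sitosterol liver (-2.12, -2.25 to -2.0), and Cish, another, at 49.7 in the low against 12.5 in the high sitosterol liver (-1.99, -2.12 to -1.86). Bcl6, a repressor of female-biased genes in male liver, stood at 15.4 and 7.56 (log2 ratio -1.03). The receptor Ghr lay at 469 and 329.6 (log2 ratio -0.51), Stat5b at 30.7 and 26.1 (log2 ratio -0.23), and Igf1, the main hormone that growth hormone raises, at 583 and 626 (log2 ratio 0.1). Onecut1 (HNF6), a hepatocyte factor that works at sex-biased genes, stood at 60.3 in the low against 7.88 in the high sitosterol liver (-2.93, -3.1 to -2.78).

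Each of the 22 major urinary protein genes had a ratio below 0 and 20 were lower by the rule (median -2.30), Mup10 and Mup8 being the others. The family shares most of its sequence, so that the summed level is firmer than any member: it was 87977 (low) and 14630.1 (high), and 30209 and 4116 in the ergosterol and stigmasterol livers. Mup15 had 97573 and 0 counts, at least 36801-fold lower against a limit of 3 counts, and Mup21, a more distinct member, stood at 818 and 51.6 (log2 ratio -3.99). Without the 19 Mup genes past the rule other than the pseudogene Mup-ps19, 404 lower calls were left. The family lies on chromosome 4. Among the Cyp2 and Cyp3 enzymes 3 of 35 were higher and 6 lower (median -0.21), beside 7.77% and 3.50% of all genes. The 3 higher ones reached 1 CPM in the high sitosterol liver alone. Of the 30 that reached it in both livers 0 were higher and 5 lower. Cyp2c37 stood at 158 and 28.8 (log2 ratio -2.46) and Cyp2c67 at 707 and 219 (log2 ratio -1.69), and Cyp3a11, the main target of the receptor PXR, lay at 606 and 559 (log2 ratio -0.12).

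In glucose metabolism G6pc, the phosphatase that releases glucose from hepatocytes, stood at 501 in the low against 42.4 in the high sitosterol liver (-3.56, -3.63 to -3.5). Pck1, the other classic gluconeogenic enzyme, lay at 1809.7 and 1622 (log2 ratio -0.16). Of 27 genes 6 were lower and 1 higher (median -0.36). Beside G6pc the lower ones included Pfkfb3 at 80.9 and 20 (log2 ratio -2.02), the glycogen scaffold Ppp1r3c at 143 and 40.9 (log2 ratio -1.8), Pklr, liver pyruvate kinase, at 707 and 277 (log2 ratio -1.35), and Txnip at 132 and 63.7 (log2 ratio -1.05). Several of these answer to the glucose-sensing factor ChREBP, whose gene Mlxipl lay at 166 and 181 (log2 ratio 0.13). Igfbp1, which insulin represses, lay at 147 and 132 (log2 ratio -0.15).

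Most zonal genes of the hepatocyte were past the rule in neither direction. Over all genes 7.77% were higher and 3.50% lower. Pericentral genes had a median of -0.57, with 2 of 20 higher and 2 lower. The lower ones were Glul, glutamine synthetase, at 1241 and 425 (log2 ratio -1.55) and Cyp1a2 at 591 and 228 (log2 ratio -1.37). Tbx3, a factor of pericentral cells, stood higher at 6.67 and 49.5 (log2 ratio 2.89), and the Wnt targets Axin2 and Lgr5 lay at 0.62 and -0.71. Periportal and amino acid genes had a median of 0.23, with 2 of 29 higher and 0 lower. The higher ones were Sds, serine dehydratase, at 302 and 718 (log2 ratio 1.25) and Aldh1b1 at 28.7 and 67.1 (log2 ratio 1.23). The urea cycle enzymes Cps1, Ass1 and Arg1 lay at -0.42, 0.23 and 0.27. Hepatocyte identity factors lay inside 2-fold apart from Onecut1, with Hnf4a at 619 and 461 (log2 ratio -0.42) and Cebpa at 438 and 286 (log2 ratio -0.62). Gpc3 stood at 1.66 and 0.108 (log2 ratio -3.81), from 68 and 5 counts.

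Clock genes differed at 6 of 19 analysed members, 4 higher and 2 lower. Per3, Per2 and Ciart, repressors of the evening arm, stood at 4.18 and 13.8 (log2 ratio 1.72), 11 and 26.3 (log2 ratio 1.26) and 7.7 and 20.1 (log2 ratio 1.38), and Arntl (BMAL1), the activator in opposite phase, at 3.66 and 1.77 (log2 ratio -1.04). Bhlhe41 stood at 26.2 and 7.12 (log2 ratio -1.88), while Dbp and Per1 lay at 126 and 168 (log2 ratio 0.42) and 30.6 and 29 (log2 ratio -0.08). The part of the hour of collection, which is not stated, was not tested. Large complexes gave no calls, with ratios mostly below 0: 0 of 41 oxidative phosphorylation subunits and 0 of 46 cytosolic ribosomal proteins were past the rule, with medians of -0.31 and -0.20, and ranges of -0.69 to 0.07 and -0.46 to 0.18. Ratios were below 0 in 39 of the 41 and 39 of the 46, and the list medians less that of all genes were -0.26 and -0.14.

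Some genes with extreme ratios belonged to none of the lists. Adam11, a protease relative without enzyme activity, stood at 3.25 and 36 (log2 ratio 3.47), Slc16a5, a monocarboxylate carrier, at 2.03 and 18.4 (log2 ratio 3.18), and Cib3, a calcium-binding protein, at 1.78 and 17.1 (log2 ratio 3.25). The lower end held Serpine2, a protease inhibitor, at 36.6 and 3.0 (log2 ratio -3.6), Slc25a30, a mitochondrial carrier, at 16.5 and 1.36 (log2 ratio -3.59), and Stox2 at 67.8 in the low against 0.345 in the high sitosterol liver (-7.57, -8.42 to -6.91). Stox2 was at 0.426 in the ergosterol and 0.983 in the stigmasterol liver. Genes named after their values were seen were AW822252, an uncharacterised gene at 3189 and 6.71 (log2 ratio -8.89), Rgs16, a brake on G protein signals, at 715 and 83.2 (log2 ratio -3.1), and Vcam1, an adhesion molecule for leukocytes, at 14.2 and 72 (log2 ratio 2.34). The myeloid factors Spi1 and Irf8, named in the same way, stood at 3.32 and 15.6 (log2 ratio 2.22) and 3.93 and 16 (log2 ratio 2.02), beside the macrophage markers above.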

How the data were processed

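Total RNA of 4 livers and 2 adrenals, each from a single male, was stored in RNAlater, extracted with RNeasy and made into libraries with the TruSeq RNA v2 kit, which does not mark strand, per the labels' protocols. For each gene symbol the authors deposited estimated counts and, in another table, TPM values, which are scaled for length and depth. Software listed in the submitters' processing notes was kallisto 0.43.1, HISAT2 2.0.5 and Trimmomatic 0.33, with mm10 as the genome and no role stated for any of them. How transcripts were joined into genes is not given in the sources used here. Counts were rounded, 1 row that named no gene was dropped, and TMM factors over the 4 livers (0.833 low and 0.955 high sitosterol) came from edgeR 4.0.16 in R 4.3.3. Ratios carry a prior count of 0.5 and exact conditional binomial intervals (95%, scipy 1.17.1), which treat reads as independent molecules and cover counting error only. With 1 library a group no count model was fitted and no p-value computed. The ratio and interval code was tested on simulated counts. Alternatives were total counts, TMM of the 2 livers alone, DESeq2 1.42.0 size factors, upper quartile factors, other limits on low counts and fold, a prior count of 2 and the TPM table with 0.1 or 1 added.

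The genes, lists and rules were chosen with earlier results of these data known. Named were a fixed set of genes, the 15 highest and 15 lowest ratios of ordinary symbols at 10 CPM or more, up to 6 members per list with the largest ratios and the member nearest to equality, the 10 largest gains and losses of scaled CPM, and genes with at most 3 counts in 1 library and 10 CPM in the other. Any member of a list of 14 or fewer could be named. Other list members given as examples were chosen after their values were seen. Promoters and start sites are RefSeq's (GRCm38.p6), matched by symbol, and gene positions are those of the GRCm38 annotation. Genes with near-identical copies (Mup, Cyp2a, Cyp4a, Gsta, Saa, Orm and Hspa1 families) are uncertain one by one. Some genes of the lists are not reported here, though counts and medians include them.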

Additional observations from a re-analysis of the deposited data

Results flagged for a closer look

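The genes given here were past the size rule in opposite directions in the liver and in the adrenal, where the high and low sitosterol diets were also set against each other with 1 library a side. Only members of the gene lists were searched, and the lists were chosen with earlier results of these data known. The difference between the tissues was not tested. Values are log2 ratios of high over low sitosterol, liver first.

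Among these list members, those higher in liver included genes of macrophages and lipid handling, themes that the lists cover at length. Gpnmb was at 7.56 in liver and -1.24 in adrenal, Mmp12 at 4.82 and -1.43, and Lpl at 3.34 and -1.58. Droplet genes were among them, with Plin4 at 2.75 and -1.03 and G0s2 at 2.0 and -1.03. The xenobiotic target Cyp2b10 was at 4.06 and -3.92, and the estrogen receptor Esr1 at 1.37 and -1.51.

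Lower in liver and higher in adrenal were the resident macrophage receptors Cd163, at -3.06 and 1.77, and Timd4, at -1.37 and 2.39, and with them Cd4, at -1.71 and 2.31. The hepatocyte product Mup1 was at -3.45 and 5.15, from 0.0242 and 1.24 scaled CPM in the adrenals. The remaining genes were Acta2 at -2.82 and 1.33, Wnt9b at -2.21 and 1.4, and the clock gene Bhlhe41 at -1.88 and 1.23.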

How the results depend on the processing

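With 1 library a group, a replicate could not be left out. No paired analysis was possible because each group is 1 library and no test was made. The counts of genes called, 939 higher and 423 lower, changed by over 1.5 times under these settings: a limit of 5 CPM left 431 higher and 229 lower of 9060 genes, no limit gave 1610 and 1126 of 19984, a fold limit of 1.5 gave 1661 and 1049, a fold limit of 4 gave 255 and 130, and log2(TPM + 1) gave 552 and 152. On the log2(TPM + 0.1) scale 262 were lower. Total counts gave 1236 and 308. The limits on low counts and fold change which genes are counted, and for the other scales the cause was not tested. Single genes were checked for the 384 analysed genes that the naming rules picked, and no called one of these changed its sign in any setting run. Other genes named here were not checked one by one. List medians, less that of all genes, left the interval of the main median in 4 cases: cell cycle (1.502) at 0.605 under the 5 CPM limit and 0.412 under log2(TPM + 1), class II (1.77) at 1.83 under the 5 CPM limit, and oxidative phosphorylation (-0.26) at -0.16 under log2(TPM + 1). Of the 227 called genes among the 384, 44 were below the 5 CPM limit and so not analysed under it. In the other settings 19 were no longer past the limit under total counts, 6 under TMM of the 2 livers, 3 under upper quartile factors, 2 with a prior count of 2, 1 with DESeq2 size factors, 30 on the log2(TPM + 0.1) scale and 58 on the log2(TPM + 1) scale, Timd4, Mki67, Ccnb1 and Itgax among the last. Leaving out genes near the adrenal share, the Mup genes or the macrophage lists was chosen after the data were seen. Depth limits genes under 2 scaled CPM, and the spread between animals is unknown at any depth.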

Other observations

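Of 43 enzymes that conjugate drugs and hormones 3 were higher and 3 lower, beside 7.77% and 3.50% of all genes. Ratios were below 0 in 33 of the 43 (median -0.38, or -0.33 relative to the median of all genes). Of the 3 higher, 2 reached 1 CPM in the high sitosterol liver alone. Nat8, an acetyltransferase, was at 17.7 and 3.43 (log2 ratio -2.36) and Ugt2b38, a glucuronosyltransferase, at 17.3 and 2.96 (log2 ratio -2.54). The abundant members Mgst1 and Gstm1, both glutathione transferases, lay at 4847 and 3112 (log2 ratio -0.64) and 1220.4 and 1564 (log2 ratio 0.36). Cyp2a22, a relative of Cyp2a4, stood at 0.537 and 5.55 (log2 ratio 3.34), and reads of such relatives may be shared.

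Of 14 listed chemokine receptors 7 were analysed and 3 were higher, of which 2 reached 1 CPM in the high sitosterol liver alone. Among the 3 were Cxcr4, the receptor for Cxcl12, at 1.2 and 5.12 (log2 ratio 2.09), and Cx3cr1, a receptor of monocyte-derived cells, at 0.562 and 1.4 (log2 ratio 1.3). Among matrix proteases, of which the 3 higher genes reached 1 CPM in the high sitosterol liver alone, Mmp13, a collagenase, rested on 2 and 57 counts, while Mmp14, which sits in the membrane, lay at 16.3 and 22 (log2 ratio 0.43). Vim, the filament protein of mesenchymal cells and macrophages, stood at 23.9 and 49.4 (log2 ratio 1.05). Genes of adipocytes gave no call in 7 analysed members, with Fabp4, which macrophages also express, at 9.01 and 12.5 (log2 ratio 0.47).

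By type of gene, 12 of 37 unprocessed pseudogenes (32.4%) and 29 of 160 processed pseudogenes (18.1%) were lower, beside 3.16% of 11587 protein-coding genes. Reads of such copies may be shared with their parent genes.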
